A study of Mus musculus with 8 samples.

Results

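The genes of the neurotrophins, of the GDNF family and of their receptors were followed over the cell classes of mouse long bone periosteum, in animals on a normal diet (ND) and on a high-fat diet (HFD). The set had 8 members of the 32285 genes listed in the deposited matrices, taken by symbol: the ligand genes Bdnf, Ntf3 and Gdnf and the receptor genes Ntrk2, Ngfr, Gfra1, Gfra2 and Ret. All 8 had at least 1 UMI (unique molecular identifier, which marks 1 captured molecule) in each library. The animals were male C57BL/6J mice of 16 weeks that had received normal chow or a chow with 60% of its calories from fat for 12 weeks, with no other treatment in either group. The labels list 4 samples per diet, and the cells came from digested left femurs and tibias. Each diet is held in 1 matrix whose barcodes carry a single suffix, so that no cell could be given to an animal. Each diet is therefore 1 library. No test between the diets could be made, no p-value is given, and each interval is an exact 95% interval that covers counting error only.

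Neurotrophins are secreted as precursors that proteases cut to mature growth factors, and they act on neurons through the Trk family of receptor tyrosine kinases. Bdnf encodes the main ligand of TrkB, which is the product of Ntrk2, while neurotrophin-3, the product of Ntf3, acts mainly through TrkC (Ntrk3) and less strongly through TrkB. Ngfr encodes p75, a receptor without kinase activity that binds every neurotrophin. The GDNF family works differently: a ligand binds a GFRα co-receptor anchored in the membrane, of which Gfra1 is the main partner of GDNF and Gfra2 that of neurturin, and the complex then engages the receptor tyrosine kinase Ret. Ligands of both families are known as target-derived factors that keep sensory and sympathetic axons alive, and bone is innervated by such axons. The cell bodies of these neurons lie outside the bone, so that the neurons are not sampled as cells in a periosteal digest. Whether RNA of their axons was present was not tested.

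Barcodes were kept as cells when between 500 and 8000 genes were read in them and mitochondrial genes made up less than 20% of their UMIs. This left 6029 of 6314 ND barcodes, holding 48106513 UMIs, and 6224 of 6636 HFD barcodes, holding 49411888. Cells were clustered with the members and their pathway genes left out of the clustering, and a cluster was called X-like after fixed marker genes. This gave 16 classes from 31 of 36 clusters, and 5 clusters stayed unnamed with 359 ND and 386 HFD cells. Although the tissue is labelled periosteum, the named blood cell classes held 5181 ND and 4983 HFD cells, and the named non-blood classes 489 and 855. In the libraries 15 barcodes were shared, of which 14 were kept in both and 2 of these fell in the same class in both.

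The class names rested on markers at the levels that follow, given as UMIs of the gene per 1000000 UMIs of the class (CPM). Since each molecule is counted at its 3′ end, this level does not scale with transcript length, and it is the unit of every level in the text. Pericyte/smooth muscle-like cells had Acta2 at 15848 CPM against 33.8 in the other cells and Notch3 at 580 against 1.82. Tenocyte-like cells had Tnmd at 439 against 3.26. Pi16 fibroblast-like cells had Pi16 at 2211 against 69.6. The Ccl11 fibroblast-like cluster was led by Inmt, Fmo2 and C4b, with Ccl11 at 648 against 9.27. Its listed marker Hsd11b1, however, was no higher there (65.6) than elsewhere (70.8). Of the 242 cells of this cluster, the markers cell by cell named 109 Ccl11 fibroblast-like, 37 Pi16 fibroblast-like, 15 marrow stroma-like and 11 endoneurial-like. They left 63 unnamed, and 38 further cells that they named Ccl11 fibroblast-like lay in the tenocyte-like cluster. B cell-like cells had Cd79a at 3349 against 32.5.

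As a measure of RNA from other cells, whether free or from doublets, matrix genes of mesenchymal cells were also read in blood cells. Dcn, a matrix gene of mesenchymal cells, was read at 95.2 CPM in ND neutrophil-like cells and 137 in HFD neutrophil-like cells, and Col1a1 at 13.1 and 39.1. The Dcn values were 0.597% and 0.870% of the non-blood level, and their UMIs lay in 10.1% of the ND and 22.1% of the HFD cells. In B cell-like cells Dcn stood at 0.122% (ND) and 0.275% (HFD) of that level. Free RNA and doublets were not told apart. The 26 HFD erythroid-like cells had Dcn at 1612 CPM (10.2% of the non-blood level), read in 23.1% of them, and all 8 members at 0. Neutrophil-like cells were taken as the class for comparison, with a median depth of 4127 UMIs per cell in ND and 4303 in HFD. No member passed 0.498 CPM in them in either library.

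The members divided into 3 patterns. Ntf3 and Ntrk2 were read almost wholly in mesenchymal, mural and, for Ntf3, endothelial cells. Gfra1 and Gfra2 were read both in mesenchymal cells and in B cell-like cells, with most of their UMIs in the latter. Bdnf, Gdnf, Ngfr and Ret were scarce, with 39, 18, 78 and 139 UMIs over both libraries, so that single cells could set a level.

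**Figure D1:**
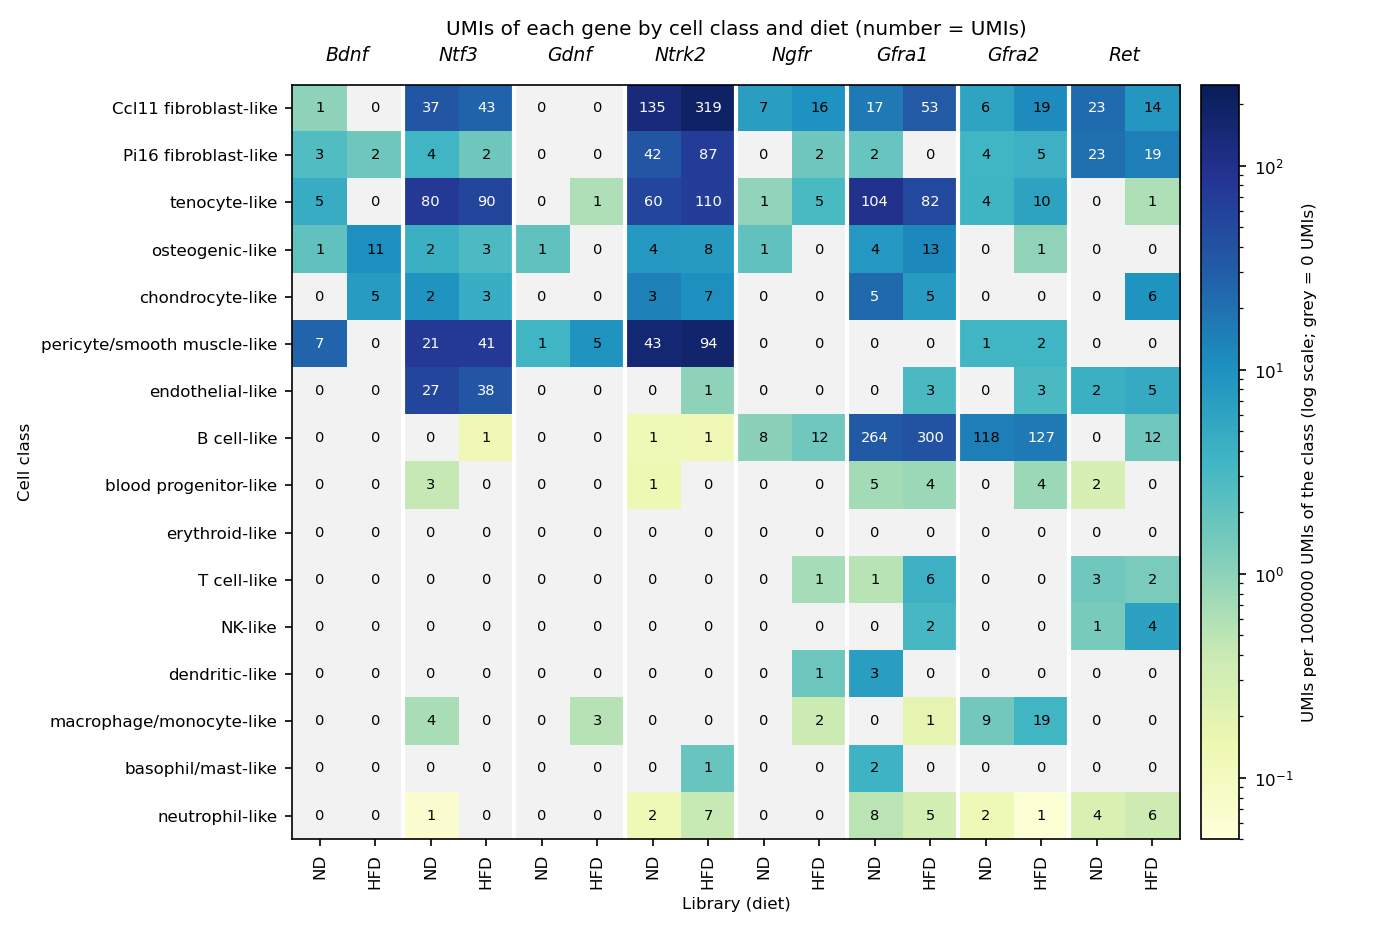
UMIs of each of the 8 genes (columns, with the ND and the HFD library side by side) in the 16 named classes (rows). The number in each field is the UMIs counted and the colour the CPM on a log scale, with fields at 0 in grey. Ntf3 and Ntrk2 both stand high in the tenocyte-like, Ccl11 fibroblast-like and pericyte/smooth muscle-like rows. Ntf3 does so also in the endothelial-like row and Ntrk2 in the Pi16 fibroblast-like row. Gfra1 and Gfra2 have most of their UMIs in the B cell-like row, and Bdnf and Gdnf stay at 0 in most rows.

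Ntf3, the gene of neurotrophin-3, was the most abundant of the 3 ligand genes, with 195 UMIs in the ND and 235 in the HFD library. Tenocyte-like cells held 170 of these 430 UMIs (39.5%, interval 34.9 to 44.3). In tenocyte-like cells the level was 74.0 CPM in ND (58.7 to 92.1, 80 UMIs) and 54.3 in HFD (43.6 to 66.7, 90 UMIs). In pericyte/smooth muscle-like cells it was 76.2 in ND (47.1 to 116, 21 UMIs) and 74.7 in HFD (53.6 to 101, 41 UMIs). Endothelial-like cells gave 55.7 in ND and 37.2 in HFD, and Ccl11 fibroblast-like cells 36.4 and 26.3. Pericyte/smooth muscle-like, tenocyte-like, endothelial-like and Ccl11 fibroblast-like cells stood in this order in both libraries, though the interval of each overlapped that of its neighbour. The next class was chondrocyte-like cells, whose interval was apart from that of Ccl11 fibroblast-like cells in HFD (0.928 to 13.2 against 19.0 to 35.4) but overlapped it in ND (1.12 to 33.4 against 25.6 to 50.2). Pi16 fibroblast-like cells, the other fibroblast class, had only 4 UMIs in ND and 2 in HFD.

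Of the 65 endothelial Ntf3 UMIs, 63 lay in the cluster led by Fabp4, Ly6c1 and Cd36, genes of capillary endothelium, at 56.3 CPM. The 8 ND and 1 HFD UMIs in all named blood classes amounted to 0.194 and 0.0255 CPM. Ntf3 was detected in 42.9% of ND and 31.7% of HFD tenocyte-like cells (median depths 10491 and 9593 UMIs), against 1 of 2406 ND neutrophil-like cells and 0 of 2431 HFD ones, which allows a share of up to 0.123%.

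Bdnf, which encodes the TrkB ligand, had 19 UMIs in 10 ND cells and 20 UMIs in 7 HFD cells. In ND the highest level was in pericyte/smooth muscle-like cells, with 7 UMIs in 3 of 29 cells (25.4 CPM, 10.2 to 52.3), while 59 HFD cells of that class had 0. In HFD the highest was in osteogenic-like cells, with 11 UMIs in 4 of 126 cells (10.5, 5.22 to 18.7), against 1 UMI in 57 ND cells. These levels rested on very few cells, since a single cell held 5 of the 11 osteogenic UMIs, another all 5 tenocyte-like UMIs and another all 5 chondrocyte-like UMIs. All 10164 cells of the named blood classes had 0 Bdnf UMIs. The limit that 0 allows in the named classes at 0 ran from 0.187 to 13.9 CPM in ND and from 0.175 to 6.27 in HFD.

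Gdnf, the gene of the founding ligand of its family, was the rarest member, with 3 UMIs in 3 ND cells and 15 UMIs in 8 HFD cells. Pericyte/smooth muscle-like cells had 1 UMI in ND and 5 in HFD, of which 4 were in a single cell. An unnamed cluster with Gatm and Chodl among its leading genes held 6 more, all in HFD cells. The gene stood at 0 in 14 of the 16 named classes in ND and in 13 in HFD. At this depth neither an order of classes nor a difference between diets could be read for it.

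Ntrk2, the gene of TrkB, had the most UMIs of the members over both libraries and in HFD, though fewer than Gfra1 in ND, with 329 UMIs in 162 ND cells and 673 UMIs in 271 HFD cells. Ccl11 fibroblast-like cells held 454 of the 1002 UMIs (45.3%, 42.2 to 48.5). Their level was 133 CPM in ND (111 to 157, 135 UMIs) and 195 in HFD (174 to 217, 319 UMIs). Pericyte/smooth muscle-like cells had a like level, 156 in ND (113 to 210, 43 UMIs) and 171 in HFD (139 to 210, 94 UMIs). In both libraries these 2 classes stood above all others, and the interval of the lower of them did not overlap that of the next class. Tenocyte-like cells had 55.5 in ND and 66.3 in HFD, and Pi16 fibroblast-like cells 37.4 and 69.4. Osteogenic-like cells, which make and mineralize bone matrix, had 8.25 in ND (4 UMIs) and 7.60 in HFD (8 UMIs). Endothelial-like cells had 0 of 484717 UMIs in ND and 1 of 1021365 in HFD.

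Per cell, Ntrk2 was detected in 79.3% of ND and 69.5% of HFD pericyte/smooth muscle-like cells, and in 57.0% and 60.4% of Ccl11 fibroblast-like cells. Median depths were 8240 and 8620 UMIs in the former and 9879 and 10254 in the latter. Neutrophil-like cells gave 0.0831% and 0.247% at their lower depths. After every cell was thinned to 1000 UMIs the shares were 10.3% of 29 ND and 20.3% of 59 HFD pericyte/smooth muscle-like cells, and 8.60% of 93 and 16.1% of 149 Ccl11 fibroblast-like cells, with 0 of 2400 ND and 1 of 2427 HFD neutrophil-like cells.

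The start sites of Ntf3 and Ntrk2 are shown because these genes shared part of their pattern. Both genes were high in tenocyte-like, Ccl11 fibroblast-like and pericyte/smooth muscle-like cells and nearly absent from blood. The 250 bases upstream of a start of each, read from the RefSeq promoter table of build GRCm38.p6, are given 5′ to 3′ on the strand of the gene. Neither window overlaps an exon, and in both the base that follows is the start of a transcript in the GENCODE annotation of the same build. Capitals mark the only match to the GC box GGGCGG, the E box CAGGTG, the EBF core CCCNNGGG, the CRE core TGACG and the TATAAA box, each searched on both strands.
Ntf3, chr6:126164961-126165210, minus strand: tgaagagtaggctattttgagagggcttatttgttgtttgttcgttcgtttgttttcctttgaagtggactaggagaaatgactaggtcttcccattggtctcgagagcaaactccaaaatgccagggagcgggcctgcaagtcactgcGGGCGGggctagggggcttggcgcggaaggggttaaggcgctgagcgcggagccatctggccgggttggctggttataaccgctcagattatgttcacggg
Ntrk2, chr13:58806319-58806568, plus strand: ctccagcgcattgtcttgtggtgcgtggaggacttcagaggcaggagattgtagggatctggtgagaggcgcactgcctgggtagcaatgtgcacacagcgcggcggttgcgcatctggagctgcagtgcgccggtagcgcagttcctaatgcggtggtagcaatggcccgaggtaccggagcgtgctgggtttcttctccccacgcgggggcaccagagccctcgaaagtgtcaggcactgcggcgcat

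The Ntf3 window lies within the span of the gene (chr6:126101412-126166910), upstream of an internal start, and the Ntrk2 window ends where the gene begins (chr13:58806569-59133970). Ntf3 had 1 GC box, 101 bases before the start, and Ntrk2 matched none of the 5 motifs. Of 32851 promoter windows of the same length, 32.7% held the GC box, 17.2% the E box, 11.8% the EBF core, 17.8% the CRE core and 12.4% the TATAAA box. The windows held 14 CpG dinucleotides for Ntf3 and 19 for Ntrk2, where the median of all windows was 6. Since reads come from the 3′ end of the transcript, the counts do not tell which start was used.

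**Figure D2:**
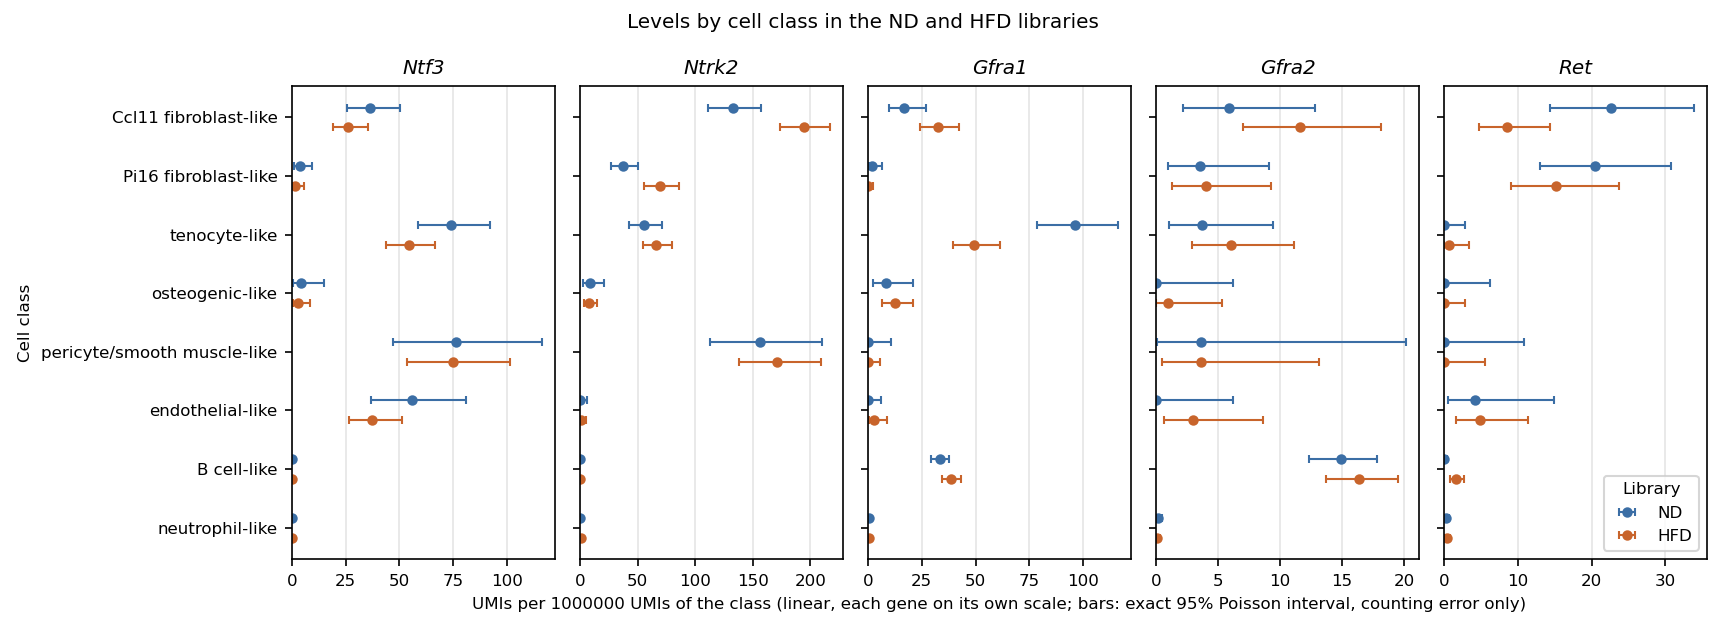
Level of Ntf3, Ntrk2, Gfra1, Gfra2 and Ret (CPM, linear axes, each gene on its own scale) in 8 classes of the ND library (blue) and the HFD library (orange), with points for the level and bars for the exact 95% Poisson interval. Ntrk2 stands highest in Ccl11 fibroblast-like and pericyte/smooth muscle-like cells, Gfra1 in tenocyte-like cells in ND, and neutrophil-like cells are near 0 throughout.

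Ngfr, the gene of p75, had 20 UMIs in the ND and 58 in the HFD library. Among named classes its level was highest in Ccl11 fibroblast-like cells, at 6.89 CPM in ND (2.77 to 14.2, 7 UMIs) and 9.77 in HFD (5.59 to 15.9, 16 UMIs). B cell-like cells had 8 UMIs in ND and 12 in HFD, each in about as many cells (1.01 and 1.55 CPM), while neutrophil-like cells had 0 in both, which allows 0.187 and 0.175. An unnamed cluster with H2-Eb1, Retnla, Mgl2 and the dendritic marker Cd209a among its leading genes held 1 UMI in ND and 16 UMIs in 10 HFD cells. A single cell held 5 of these 16 UMIs. The cluster scored best for macrophage/monocyte-like cells but had more markers of another class among its top 10 genes. TrkB and p75 can form joint receptors, and both genes were read in 2 of the 55 ND and 7 of the 94 HFD Ccl11 fibroblast-like cells that had either.

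Gfra1, the gene of the GDNF co-receptor, had 446 UMIs in the ND and 511 in the HFD library. Its highest level among the named classes was in tenocyte-like cells in both libraries, although in HFD the interval overlapped that of B cell-like cells (34.5 to 43.4). In tenocyte-like cells it was 96.2 CPM in ND (78.6 to 117, 104 UMIs in 49 of 98 cells) and 49.4 in HFD (39.3 to 61.4, 82 UMIs in 48 of 161 cells). Ccl11 fibroblast-like cells had 16.7 in ND (17 UMIs) and 32.4 in HFD (53 UMIs), and osteogenic-like cells 8.25 (4 UMIs) and 12.4 (13 UMIs). Pericyte/smooth muscle-like cells, which along with Ccl11 fibroblast-like cells stood highest for Ntrk2, had 0 Gfra1 UMIs in both libraries. The limits were 10.9 in ND and 5.47 in HFD. Pi16 fibroblast-like cells had 2 UMIs in ND and 0 in HFD.

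By number of molecules the leading class for Gfra1 was B cell-like cells, which held 564 of the 957 UMIs (58.9%, 55.7 to 62.1) at 33.3 CPM in ND (264 UMIs) and 38.7 in HFD (300 UMIs). Gfra2, the gene of the neurturin co-receptor, had 245 of its 365 UMIs there (67.1%, 62.0 to 71.9), at 14.9 in ND (118 UMIs) and 16.4 in HFD (127 UMIs). Neutrophil-like cells had 0.498 and 0.292 CPM for Gfra1 and 0.124 and 0.0584 for Gfra2. The signal in B cell-like cells lay in a few clusters and was nearly missing from the others.

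The 2 B cell-like clusters led by Igll1, which encodes a part of the surrogate light chain of the pre-B cell receptor, held 355 Gfra1 and 235 Gfra2 UMIs in 400 cells. The smaller of them, led by Vpreb1, Igll1 and Vpreb3 with Dntt among its leading genes, had Gfra1 at 184 CPM in ND (137 to 241, 52 cells) and 180 in HFD (140 to 227, 61 cells). Its Gfra2 level was 120 in ND (83.2 to 168) and 105 in HFD (75.5 to 143). The other, led by Vpreb3, Pclaf and Igll1 with Mki67 in 72.9% of its ND and 80.1% of its HFD cells, had Gfra1 at 50.04 in ND (41.3 to 60.1) and 52.7 in HFD (43.6 to 63.1), and Gfra2 at 33.9 and 36.6. In each of these clusters the intervals of the 2 libraries overlapped for both genes. Of the cells in this cycling cluster 23.3% were among the highest doublet scores, against 6.195% in the smaller one. Without the cells of high score in all classes, B cell-like cells had Gfra1 at 34.5 in ND and 40.1 in HFD and Gfra2 at 15.5 and 17.04.

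A further cluster, led by Vpreb3, Ebf1 and Ly6d and low in Igll1 (24.02 CPM in ND and 14.6 in HFD), kept Gfra1 at 90.7 in ND (70.5 to 115, 68 UMIs) and 91.4 in HFD (74.4 to 111, 100 UMIs). It had only 2 and 1 Gfra2 UMIs. Gfra1 was thus read in all 3 clusters led by Vpreb1 or Vpreb3, and Gfra2 mainly in the 2 of them with Igll1 among the leading genes. The cluster led by Iglc2 and Igkc, light chain genes of cells past that stage, had 9.47 CPM of Gfra1 in ND and 4.50 in HFD. In the clusters led by H2-Eb1 or H2-Aa with Ighd, a mark of mature naive B cells, Gfra1 and Gfra2 had 0 UMIs in each library, where the limits ran from 2.58 to 15.7.

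**Figure D3:**
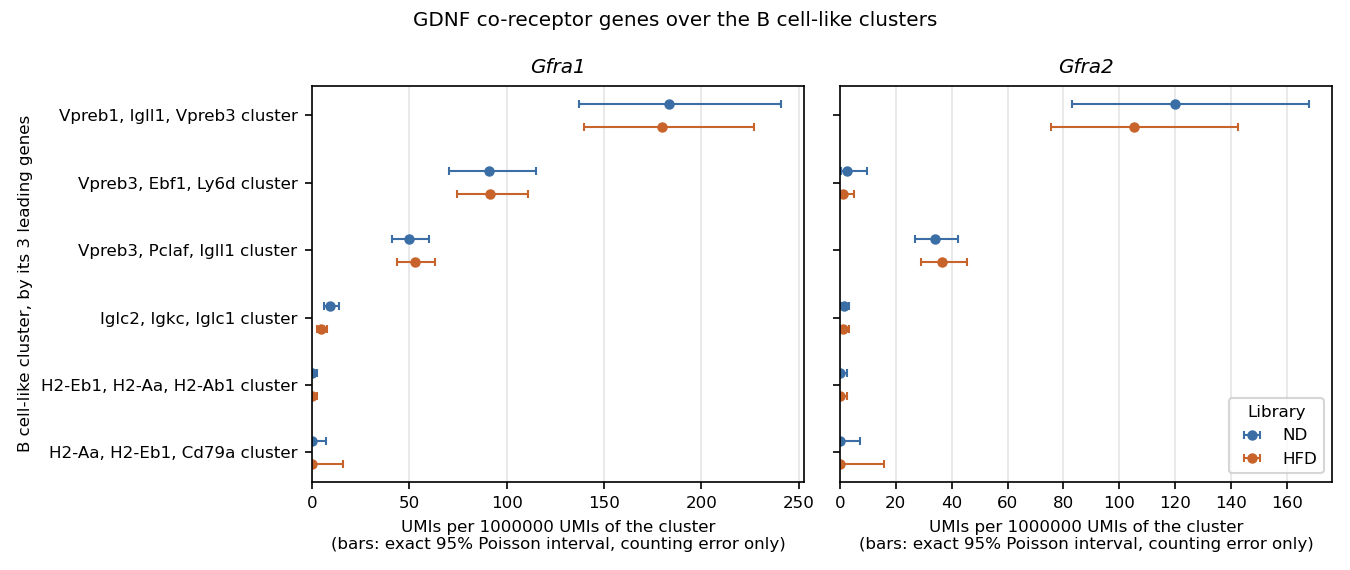
Gfra1 (left) and Gfra2 (right) in CPM over the B cell-like clusters, each named by its 3 leading genes, in the ND (blue) and HFD (orange) library with exact 95% Poisson intervals. Gfra1 falls from 184 and 180 in the Vpreb1 and Igll1 cluster to 0 in both clusters led by MHC class II genes, and Gfra2 at 33.9 or more lies only in the 2 clusters with Igll1 among these genes.

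The clusters differ in depth, with medians of 4954 and 6090 UMIs per cell in the Vpreb1 and Igll1 cluster, 10516 and 11410 in the cycling one and 3366 and 3417 in the one led by Vpreb3 and Ebf1. Gfra1 was detected in 61.5% and 65.6%, 45.7% and 47.8%, and 26.6% and 23.8% of their ND and HFD cells. Thinned to 1000 UMIs per cell, the shares were 19.2% and 14.8%, 4.64% and 3.68%, and 11.6% and 8.14%. The first of these clusters thus stayed highest, while the order of the other 2 turned, as the CPM already showed.

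Gfra2 was also read in macrophage/monocyte-like cells, with 9 UMIs in ND and 19 in HFD (1.50 and 3.45 CPM), and 27 of these 28 lay in the cluster led by C1qa, C1qc and C1qb, complement genes of resident macrophages. Ccl11 fibroblast-like cells had 5.90 in ND (6 UMIs) and 11.6 in HFD (19 UMIs), above the macrophage/monocyte-like class as a whole. Over both libraries they had 9.42 (6.10 to 13.9) and the cluster led by C1qa 12.1 (7.975 to 17.6), with overlapping intervals. The remaining non-blood classes had between 0 and 10 UMIs in a library.

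Ret, the gene of the signalling receptor that the GFRα proteins need, had 61 UMIs in 34 ND cells and 78 UMIs in 58 HFD cells. Pi16 fibroblast-like cells had 20.5 CPM in ND (13.0 to 30.8, 23 UMIs in 13 of 88 cells) and 15.2 in HFD (9.12 to 23.7, 19 UMIs in 9 of 107 cells). Ccl11 fibroblast-like cells had 22.6 in ND (14.3 to 34.0, 23 UMIs in 8 of 93 cells) and 8.55 in HFD (4.67 to 14.3, 14 UMIs in 10 of 149 cells). Shares of cells were thus 14.8% and 8.41% in the former and 8.60% and 6.71% in the latter, against 0.166% and 0.247% of neutrophil-like cells at lower depth. In ND these 2 classes stood highest, with overlapping intervals. In HFD chondrocyte-like cells came between them, with 6 UMIs in 5 of 31 cells (9.004, 3.30 to 19.6), and all 3 intervals overlapped. Of the 44 cells of this cluster, the markers cell by cell named 14 Pi16 fibroblast-like and 8 chondrocyte-like. Tenocyte-like cells, the highest class for Gfra1, had 0 Ret UMIs in ND (limit 2.77) and 1 in HFD. Osteogenic-like and pericyte/smooth muscle-like cells had 0 in both libraries.

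In B cell-like cells Ret had 0 UMIs in ND, which allows 0.378 CPM, and 12 UMIs in 11 HFD cells (1.55, 0.801 to 2.71). Of these 12, 9 lay in 8 cells of the cluster led by Vpreb3 and Ebf1. The 2 Igll1-led clusters had 0 Ret UMIs in 203 ND and 197 HFD cells, with a limit of 0.576 CPM over both. Ncam1, whose product can serve as another partner of GFRα1, also had 0 UMIs in these 400 cells.

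Both parts of a receptor were counted in the same cell. In Ccl11 fibroblast-like cells Ret occurred with Gfra1 or Gfra2 in 3 of the 18 ND cells (16.7%, 3.58 to 41.4) and 1 of the 40 HFD cells (2.50%, 0.0633 to 13.2) that had any of them. In Pi16 fibroblast-like cells it was 3 of 16 ND and 1 of 12 HFD cells. Tenocyte-like cells in ND and the Igll1-led B cell-like clusters had 0 Ret UMIs, so that no overlap could be counted there. In those B cell-like clusters Gfra1 and Gfra2, which are more abundant than Ret, were both read in 41 of the 129 ND cells with either (31.8%, 23.9 to 40.6) and 43 of the 126 HFD cells (34.1%, 25.9 to 43.1). Many molecules in a cell are not captured, which lowers such a share, while doublets and free RNA, which were not removed, can raise it. Over both libraries 18.5% of the Igll1-led cells were among the highest doublet scores. Each such share is thus not a limit on co-expression from either side.

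Ligand and receptor genes were also set side by side. In Ccl11 fibroblast-like cells Ntf3 and Ntrk2 were both read in 20 of the 60 ND and 23 of the 95 HFD cells with either, in tenocyte-like cells in 18 of 61 and 15 of 93, and in pericyte/smooth muscle-like cells in 8 of 26 and 17 of 47. Ntrk3, the gene of the main neurotrophin-3 receptor, is named here after its values were seen. It was read with Ntf3 in 4 of 18 ND and 10 of 38 HFD pericyte/smooth muscle-like cells. In both fibroblast classes and in tenocyte-like cells it was read with Ntf3 in 0 cells, but little overlap could be counted there. Pi16 fibroblast-like cells had Ntf3 in only 2 ND and 2 HFD cells. Ccl11 fibroblast-like and tenocyte-like cells each had under 20 Ntrk3 UMIs over both libraries.

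Between the diets, 18 of the 74 pairs of a member and a named class with any UMI had at least 20 over both libraries. For these the level ratio of HFD over ND was computed on the log2 scale after adding 0.5 UMIs to each count. The interval lay above 0 in 3 pairs and below 0 in 2 pairs, and 2 pairs passed 2-fold, 1 in each direction. The share of all genes whose interval left out 0 was not computed. The count of such pairs therefore does not set the members apart from other genes. The libraries also differed in the Dcn and Col1a1 RNA read in blood cells, as given above, and in the number of non-blood cells. The part of these differences in the ratios was not tested. Diet, digestion and library cannot be told apart with 1 library per diet.

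**Figure D4:**
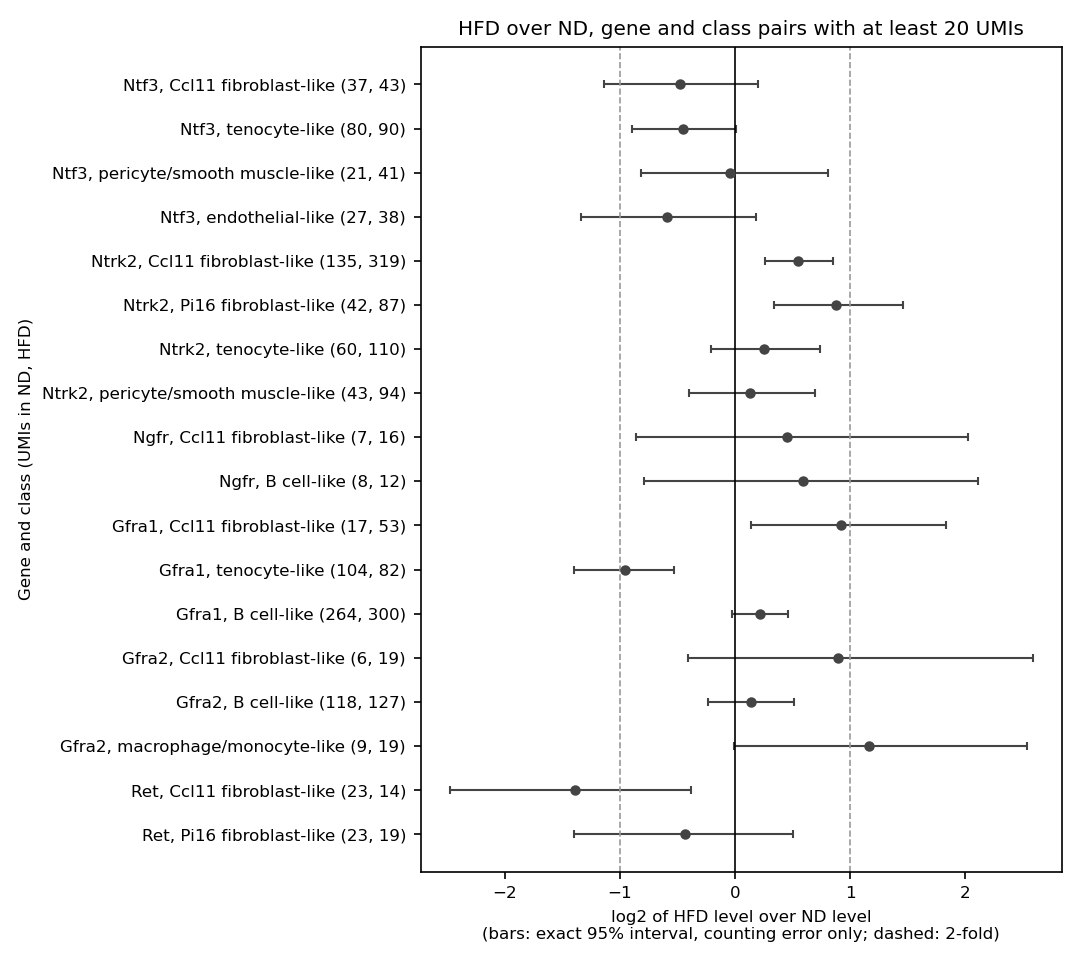
log2 ratio of the HFD over the ND level for the 18 pairs of gene and class with at least 20 UMIs (UMIs in ND and HFD in brackets), with exact 95% intervals for counting error and dashed lines at 2-fold. The intervals for Ntrk2 in both fibroblast classes and Gfra1 in Ccl11 fibroblast-like cells lie above 0, and those for Gfra1 in tenocyte-like and Ret in Ccl11 fibroblast-like cells lie below 0.

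Ntrk2 was higher in HFD in Ccl11 fibroblast-like cells by 0.55 on the log2 scale (0.26 to 0.85) and in Pi16 fibroblast-like cells by 0.88 (0.34 to 1.46). In tenocyte-like cells the ratio was 0.25 (-0.21 to 0.74) and in pericyte/smooth muscle-like cells 0.13 (-0.40 to 0.69), with intervals that include 0. The Pi16 fibroblast-like ratio was -0.04 once cells were thinned to 1000 UMIs, which left 5 ND and 6 HFD UMIs, and 0.14 when classes were set cell by cell from markers.

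Gfra1 was lower in HFD tenocyte-like cells by a log2 ratio of -0.96 (-1.40 to -0.53) and higher in HFD Ccl11 fibroblast-like cells by 0.92 (0.14 to 1.83). Without the 1 HFD tenocyte-like cell with most UMIs the former was -1.12 (-1.57 to -0.67), past 2-fold. Leaving out the HFD cell with most UMIs can only lower this ratio, so the step is no check on it. Thinned to 1000 UMIs per cell, the order of the Ccl11 fibroblast-like levels turned, with 4 ND UMIs (43.01 CPM) and 5 HFD UMIs (33.6). In B cell-like cells Gfra1 had a ratio of 0.22 (-0.02 to 0.46) and Gfra2 0.14 (-0.23 to 0.51). Without the ND cell with most UMIs, a step that can only raise the ratio, Gfra1 was 0.255 (0.010 to 0.501). By cluster the Gfra1 ratio was 0.01 (-0.45 to 0.48) in the one led by Vpreb3 and Ebf1 and 0.07 (-0.31 to 0.46) in the cycling one. It was -0.04 (-0.57 to 0.51) in the Vpreb1 and Igll1 cluster and -1.04 (-2.18 to -0.06) in the one led by Iglc2 and Igkc. Gfra2 in macrophage/monocyte-like cells, at 1.17 (-0.01 to 2.53), was the member past 2-fold higher.

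Ret in Ccl11 fibroblast-like cells was the member past 2-fold lower, at -1.39 (-2.48 to -0.38). A single ND cell held 8 of its 23 UMIs, and without that cell the ratio was -0.81 (-1.97 to 0.34). In Pi16 fibroblast-like cells it was -0.43 (-1.39 to 0.50). Ntf3 was lower in HFD with intervals including 0 in tenocyte-like cells (-0.45, -0.90 to 0.01), endothelial-like cells (-0.59, -1.33 to 0.19) and Ccl11 fibroblast-like cells (-0.47, -1.14 to 0.20), and it was -0.04 (-0.82 to 0.81) in pericyte/smooth muscle-like cells.

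The counts past 2-fold were read against all genes with at least 20 UMIs in the same class. In Ccl11 fibroblast-like cells 0 of 6 members were 2-fold or more higher and 1 of 6 was lower, where 3.46% and 1.96% of all genes passed. In Pi16 fibroblast-like cells it was 0 of 2 members each way, with 2.63% and 2.80% of all genes, in tenocyte-like cells 0 of 3, with 3.57% and 1.95%, and in pericyte/smooth muscle-like cells 0 of 2, with 3.84% and 3.57%. The 1 member in endothelial-like cells did not pass, with 3.20% and 2.20%, nor did the 3 in B cell-like cells, with 1.39% and 2.04%. Of macrophage/monocyte-like cells 1 member passed the minimum and was higher, with 1.25% and 2.30% of all genes. No member reached 20 UMIs in osteogenic-like cells, where 3.46% and 3.03% of all genes passed. Over all named non-blood cells 0 of 7 members passed either way, with 2.67% and 1.23%. With so few members per class, these shares do not set the members apart from other genes.

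Pooled over both libraries, 6 of the 7 members with at least 20 UMIs were 2-fold or more higher in non-blood than in blood classes, where 35.9% of 15835 genes were. The classes had been defined with other genes, and the members were left out of the clustering. The members were, however, chosen with earlier results of these data known. Bdnf, Ntf3 (393 non-blood and 9 blood UMIs) and Ntrk2 (913 and 13) also reached 20 UMIs only through non-blood cells. The count is therefore a description and does not set the members apart from other genes. The ratios ran from 3.08-fold for Gfra1 (23.0 against 7.47 CPM) to 435-fold for Ntrk2 (72.9 against 0.161), with 266-fold for Ntf3, 17.4-fold for Ret and 8.53-fold for Ngfr, while Bdnf had 35 UMIs in non-blood and 0 in blood cells. Gfra2, at 1.27-fold (4.39 against 3.48), did not pass. The blood level pools all blood classes, and B cell-like cells alone had Gfra1 at 36.0 CPM, above the 23.0 of the non-blood classes.

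**Figure D5:**
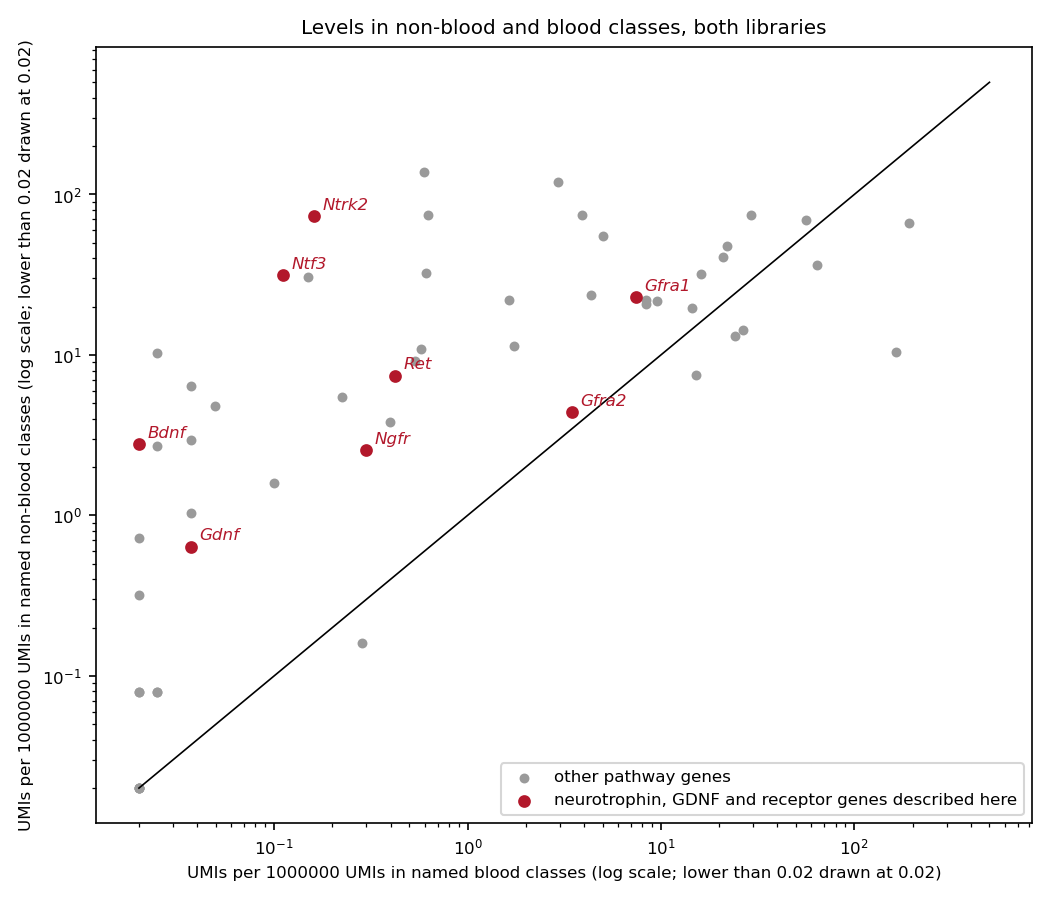
Level in the named non-blood classes (vertical) against the named blood classes (horizontal), in CPM over both libraries on log axes, for the 8 members (red) and, unnamed, the 47 other pathway genes (grey), with the line of equal levels and values below 0.02 drawn at 0.02. Ntrk2 and Ntf3 lie far above the line, Gfra1 lies above it and Gfra2 close to it.

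The wider pathway was described with 47 further genes in 6 lists: other neurotrophin ligands, other GDNF family ligands with Gdf15, other receptors, partners of p75, adaptors, and proneurotrophin processing. Of those with at least 20 UMIs, 2 of 2 ligands of the GDNF family and Gdf15, 5 of 7 receptors, 3 of 5 p75 partners, 9 of 14 adaptors and 5 of 7 processing genes were 2-fold or more higher in non-blood cells, beside the 35.9% of all genes, and Sorl1, Traf6 and Grb2 were 2-fold or more lower. These lists, too, were chosen with earlier results of these data known, so that the counts are a description only. Ntrk3 was highest in pericyte/smooth muscle-like cells (61.9, 46.1 to 81.3), followed by Pi16 fibroblast-like cells (17.7, 12.7 to 23.9).

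Of the GDNF family ligands, Nrtn had 68 non-blood UMIs and was highest in chondrocyte-like cells (13.6 CPM, 7.03 to 23.8, 12 UMIs), with an interval that overlapped that of tenocyte-like cells (10.2, 6.79 to 14.8, 28 UMIs). Artn had 13 and Pspn 1. Gdf15 is a distant member whose receptor gene Gfral had 0 UMIs in any cell. It had 65.7 in endothelial-like cells, where a single cell held 52 of 99 UMIs. In pericyte/smooth muscle-like cells it had 61.9, where 51 UMIs lay in 23 cells. More Gdf15 UMIs lay in macrophage/monocyte-like cells, with 252 in ND (41.9 CPM) and 348 in HFD (63.2). Their level was above that of endothelial-like (41.1) and pericyte/smooth muscle-like cells (52.9) in HFD. In ND it was below both (118 and 79.8). The named blood classes held 675 Gdf15 UMIs and the named non-blood classes 275. Among the other receptors, Ncam1 (383) and Sdc3 (167), both known as alternative partners of GDNF, were highest in osteogenic-like cells, and Sort1, the gene of the proneurotrophin receptor sortilin, in pericyte/smooth muscle-like cells (138), though over all classes it was lower in non-blood (14.2) than in blood cells (26.7). Gfra4 reached 10.6 in tenocyte-like cells.

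The intracellular partners were broader. Of the p75 partners, Maged1 was highest in osteogenic-like cells (226), Bex3 in erythroid-like cells (214) and Traf6 in B cell-like cells (35.9). Of the adaptors, Grb2 was higher in blood (192) than in non-blood cells (66.9), Shc1 was 2.19-fold higher in non-blood cells and Kidins220 1.95-fold. Of the processing genes, Pcsk6, which encodes a proprotein convertase, was highest in Pi16 fibroblast-like cells (391), and Plat, the gene of tissue plasminogen activator, likewise (109). Mmp3, which encodes a protease able to cut proneurotrophins and is named after its values were seen, was highest in Ccl11 fibroblast-like cells (74.2).

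Between the diets, few of the pathway genes passed 2-fold. In Ccl11 fibroblast-like cells 1 of 25 was higher and 1 lower, where 3.46% and 1.96% of all genes passed. The higher one was Mmp3, which went from 18 UMIs in ND (17.7 CPM) to 179 in HFD (109), a log2 ratio of 2.59 (1.92 to 3.41). A single non-blood cell of the HFD library held 58 Mmp3 UMIs. In Pi16 fibroblast-like cells 0 of 20 were higher and 1 was lower, beside 2.63% and 2.80% of all genes. In tenocyte-like cells 1 of 25 was higher and 0 lower, beside 3.57% and 1.95%. The higher one was Plat, with 34 and 128 UMIs (1.28, 0.74 to 1.89).

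In pericyte/smooth muscle-like cells 2 of 15 were higher and 0 lower, beside 3.84% and 3.57% of all genes. The higher ones were Sort1 with 21 ND and 93 HFD UMIs (1.13, 0.46 to 1.91) and the adaptor Gab1 with 5 and 25 (1.22, -0.08 to 3.07). In endothelial-like cells 1 of 18 was higher and 2 were lower, beside 3.20% and 2.20% of all genes. The higher one was Bex3, with 6 and 38 UMIs (1.49, 0.33 to 3.12). Gdf15 was among the lower ones, but a single ND cell held 52 of its 57 ND UMIs. HFD had 42 Gdf15 UMIs in 8 cells, and no direction was read for this gene. In osteogenic-like cells 0 of 20 were higher and 2 lower, beside 3.46% and 3.03% of all genes. The lower ones were Rtn4r, with 15 and 16 UMIs (-1.03, -2.135 to 0.09), and Dok1, with 20 and 20 UMIs (-1.12, -2.09 to -0.15). In B cell-like cells 0 of 16 passed, beside 1.39% and 2.04% of all genes, and in macrophage/monocyte-like cells 0 of 19, beside 1.25% and 2.30%. The median log2 ratio of the pathway genes was 0.02 in Ccl11 fibroblast-like cells beside 0.05 for all genes, and 0.12 beside 0.04 in tenocyte-like cells.

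Schwann cells, which wrap axons and are known to express p75 and GFRα genes, were not a class of their own. Cells with UMIs of at least 3 of 7 Schwann markers were 4 in ND and 9 in HFD, with 62517 UMIs in all. These 13 cells held 9 Gfra1 UMIs (144 CPM), 5 Ntrk2, 4 Gfra2, 4 Gfra3 and 2 Ngfr UMIs, and 0 of Bdnf, Ntf3, Gdnf and Ret. A count of 0 allows 3 of these 62517 UMIs, a higher level than any read for Bdnf, Gdnf or Ret in a named class. The zeros therefore do not show that these genes were absent. Of the 13 cells, 11 lay in the unnamed cluster with Gatm and Chodl among its leading genes, whose 189 cells had Gfra1 at 60.2 CPM (34 UMIs).

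For the 5 members with at least 100 UMIs, the genes most alike over the 32 profiles of class and library were found by Pearson's correlation of log2(CPM + 1) among 11877 genes with at least 200 UMIs. The profiles of the same class in both libraries are not independent, and no test is attached. Ntrk2 was most like Rgma (0.96), Gpc6 (0.96) and Mrgprf (0.95), and Ntf3 most like Nr2f2 (0.94), Prickle1 (0.94) and Eln (0.92). Likeness was weaker for Ret, led by Scg3 (0.80), for Gfra2, led by Akap12 (0.78), and for Gfra1, led by Spon1 (0.75). Among the members themselves, Ntf3 and Ntrk2 had 0.77, Gfra1 and Gfra2 0.50, and Gfra1 and Ret 0.11.

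Overlapping genes touched a few values. Annotated genes lie on the strand opposite to Bdnf, Ntrk2 and Gfra1, and the sources used here do not state whether counting used strand. The antisense genes listed in the matrices had 0 UMIs (Gm45346, at Bdnf), 4 (Gm47423, at Ntrk2) and 2 (Gm16277, at Gfra1). Gm45346 and Gm16277 share exonic bases with Bdnf and Gfra1.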

How the data were processed

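The authors deposited 1 matrix of UMI counts per diet, made with Cell Ranger 6.0.1 on build mm10 per the labels (submitters' processing notes) from 10x 3′ libraries. Counts per gene and cell were used as deposited. Barcodes with more than 500 and fewer than 8000 genes and under 20% mitochondrial UMIs were kept. Cells were clustered in Seurat 5.3.0 with sctransform 0.4.2 (30 components, resolution 0.5) without the members and pathway genes, and clusters were named from fixed markers, with limits on naming set after the clusters were seen. Members, gene lists and markers were chosen with earlier results of these data known. Levels (CPM) are UMIs per 1000000 UMIs of a class, computed here, with exact Poisson intervals, and shares have Clopper-Pearson intervals at 95%. A count of 0 allows 3. Ratios add 0.5 UMIs and were called past 2-fold with at least 20 UMIs. The calculations were tested on simulated data. Named pathway genes were the 3 of each list with the highest non-blood level and at least 20 UMIs, and others of these lists were named after their values were seen. Some genes of these lists are not reported here. Doublets were not removed; the 5% of cells with the highest Scrublet score were left out as an alternative. Thinning drew 1000 UMIs per cell. Depth was 48106513 UMIs in ND and 49411888 in HFD.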

Additional observations from a re-analysis of the deposited data

How the results depend on the processing

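Of 319 alternative values for 37 results, 271 stayed within the counting interval, 47 moved beyond it and 1 ratio whose interval left out 0 changed sign. That ratio was Ntrk2 in Pi16 fibroblast-like cells. Thinning also turned the order of the Gfra1 levels in Ccl11 fibroblast-like cells, whose ratio had an interval that left out 0, and this count does not include it. Ratios whose interval included 0 changed sign as well, among them those of Gdnf, Ngfr, Gfra1 and Gfra2 given here. No paired analysis was possible because each diet is 1 library without replicates, so no replicate could be left out either. Thinned to 1000 UMIs per cell, levels in CPM were 0 for Bdnf in osteogenic-like ND cells, 112 for Ntf3 in tenocyte-like ND cells, 34.5 (ND) and 0 (HFD) for Gdnf in pericyte/smooth muscle-like cells, 86.0 for Ntrk2 in Ccl11 fibroblast-like ND cells, 0 in both for Ngfr there, 32.8 for Gfra1 in B cell-like HFD cells, and 10.3 and 8.71 for Gfra2 in B cell-like cells. The shares of UMIs in the leading class were then 38.8% for Ntrk2, 0% for Ngfr, 70.5% for Gfra1, 58.0% for Gfra2 and 15.8% for Ret. The log2 ratios of HFD over ND were then -1.15 for Ntf3, -2.61 for Gdnf, 1.16 for Ntrk2, -0.088 for Gfra1 and -0.24 for Gfra2 in the leading class. The Ntrk2 ratio in Pi16 fibroblast-like cells was -0.041. The thinned Gdnf values rest on 1 UMI in 29 ND cells (0.873 to 192 CPM) and 0 in 59 HFD cells (limit 50.9). The thinned zeros allow 52.6 CPM for Bdnf, and 32.3 (ND) and 20.1 (HFD) for Ngfr. For these genes a move beyond the interval cannot be told from loss of counts.

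With classes set cell by cell from markers, Ntrk2 in Ccl11 fibroblast-like cells was 79.5 in ND and 154 in HFD (ratio 0.94, share 23.7%), Ngfr there 3.31 in HFD (ratio -1.65, share 14.1%), and the Ntf3 share of tenocyte-like cells 27.0%. With every deposited barcode the B cell-like levels were 28.3 and 32.4 for Gfra1 and 11.2 and 12.1 for Gfra2, with shares of 45.6% and 45.9%, and the Ntrk2 share was 48.6%. It was 49.3% with the genes kept in the clustering. The Gfra1 share was 64.4% without the highest doublet scores and 63.1% at resolution 0.25, where the Ret share of Pi16 fibroblast-like cells was 61.2%. At that resolution no Ccl11 fibroblast-like class was found. As a mean over cells Gfra2 in B cell-like cells was 8.70 and 7.37 (ratio -0.24), and with subclusters weighted alike the Gfra1 ratio was -0.10. With every deposited barcode, a cluster led by Vpreb1, Igll1 and Vpreb3 (420 ND and 338 HFD cells) stayed unnamed, and so lay outside the B cell-like class. At resolution 0.25 a cluster led by Pi16 and Ccl11 (206 ND and 315 HFD cells) was named Pi16 fibroblast-like. The share of the moves that such changes of class name make up was not tested, nor was the cause of the other moves. Ratios in other classes, and those without the cell with most UMIs, were chosen after seeing the data. Counts limit Bdnf, Gdnf and Ngfr most.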
